A study of Arabidopsis thaliana with 9 samples.

Results

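T87 is a suspension line of undifferentiated wild-type Arabidopsis thaliana cells, and these results describe how its RNA differed after 3 h in mannitol medium with the cell wall still in place. The comparison sets the 3 arrays labelled as osmotic stress against the 3 labelled as intact, 6 of the 9 arrays in the series, over all 22746 probe sets other than the controls among the 22810 in the deposited table. The arrays were chosen by their titles alone. Intact cells came from cultures 4 days old, kept in light with shaking, and received nothing further. The osmotic cells came from cultures of the same age and had 3 h in medium containing 0.4 M mannitol. The remaining 3 arrays are protoplasts, cells of that age whose walls had been removed with cellulase and pectolyase before 3 h in the same concentration of mannitol. They enter the fit of the spread and 1 comparison near the end. No intact cells received fresh medium without mannitol, so mannitol, the change of medium, the handling and the time in it cannot be told apart here.

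Mannitol is a sugar alcohol that plant cells take up poorly, so water leaves the cell and the membrane is pulled away from the wall. Plant cells under such water loss are known to make dehydrins and other protective proteins, to slow division and growth, and to adjust solutes through pathways that depend in part on the hormone abscisic acid. A wall that stays in place keeps the cell's shape and its contacts with the membrane, which is the state that protoplasts have lost.

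Median intensities were 152 to 156 on the intact arrays and 145 to 162 on the osmotic arrays. The ratio of the 3-prime to the 5-prime control probe set for actin was 13.6 to 14.8 on intact arrays and 7.40 to 8.80 on osmotic arrays, without overlap (exact two-sided permutation test, p = 0.1, the smallest that 3 against 3 arrays allow). The same ratio for GAPDH overlapped between the groups (p = 0.8, same exact test). That for ubiquitin overlapped as well, at 1.86 to 2.72 on intact and 2.32 to 2.45 on osmotic arrays. Of 30 marker genes written for cell types, 10 had a probe set of their own. The dividing-cell markers AUR1 and PRL were bright in intact cells (2677 ± 217 and 817 ± 64.7, SD, n = 3), as were the photosystem genes PSAE-1 (2636 ± 415) and PSAN (721 ± 170). The root hair gene EXPA7 (17.1 ± 11.1), the guard cell gene FMA (11.1 ± 12.4) and the meristem gene CLV3 (7.64 ± 5.81) lay near the bottom of the scale. Another root hair gene, EXPA18, read 33.8 ± 14.9. The secondary wall gene GUT2 read 109 ± 5.01, at percentile 44.8 of intact means, so not every marker of another cell type was that dim. In bulk RNA of this kind, fewer cells of a type and less RNA per cell cannot be told apart. The replicates are separate biological samples by the labels.

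After mannitol medium, 944 probe sets rose (4.15%) and 892 fell (3.92%), 8.07% of all in either direction, by limma's moderated test at a Benjamini-Hochberg adjusted p under 0.05. The intact and osmotic arrays did not overlap for any of the 1836 called probe sets. Over all probe sets, 15.6% were higher and 16.7% lower without overlap. Most of the called probe sets carry no familiar gene name. Of the rises, 430 had a locus code only, 423 were not named by the array's annotation and 74 had a gene symbol. Of the falls, 446 had a locus code only, 357 were unnamed and 77 had a symbol. The share that rose was 4.68% among the 1580 probe sets with a symbol and the share that fell was 4.87%.

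Rises were larger than falls and started from a lower level. All changes below are differences of mean log2(intensity + 16), called log2 changes, and a fold is read from that scale, which understates the change of dim probe sets. Past 2-fold there were 661 rises and 483 falls, past 4-fold 228 and 40, and past 8-fold 81 and 4. Past 16-fold there were 28 rises and 0 called falls. The median rising probe set had a mean intensity of 198 in intact cells and 631 in mannitol, while the median falling one went from 582 to 250.2. Over all probe sets the medians were 158 and 161, and the median log2 change was 0.01. Calls were few among dim probe sets. When probe sets were ranked by mean level over all 9 arrays and cut into 5 equal parts, in the dimmest 0.681% rose and 0.352% fell, against 8.46% and 4.02% in the brightest, and falls were most frequent in the middle one (7.14%). Only 4 probe sets were under 50 on every intact array and over 500 on every osmotic array, and 0 showed the opposite.

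**Figure D1:**
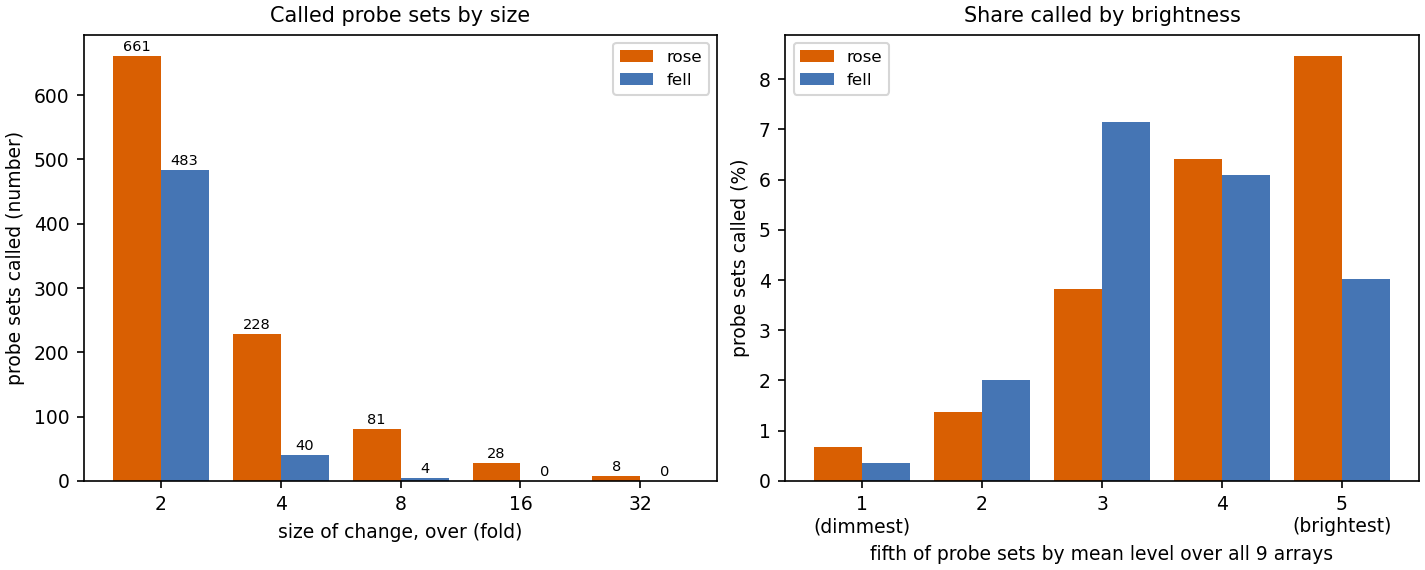
Left, number of called probe sets whose change passed each fold (orange, rose; blue, fell), with the number above each bar; 228 rises but 40 falls passed 4-fold. Right, percent of probe sets called in each of 5 equal parts by mean level over all 9 arrays; rises were most frequent in the brightest and falls in the middle one.

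Of the 12 largest rises that map to 1 gene, 9 were known by locus code alone. AT4G28140 read 40.2, 25.5 and 30.8 on the intact arrays and 2970, 2389 and 1200 on the osmotic arrays. AT3G59480 read 31.7, 45.0 and 28.5 before and 1687, 2305 and 1619 after. Both were near the bottom of the scale in intact cells and bright on all osmotic arrays, a log2 change of 5.43 ± 0.44 (SE, adjusted p = 0.000423) and 5.20 ± 0.24 (adjusted p = 4.05e-05). AT1G72060 rose from 106, 116 and 158 to 3774, 4104 and 1996 (4.48 ± 0.32). AT1G05340 rose from 176, 176 and 146 to 2979, 2794 and 4319, a log2 change of 4.19 ± 0.21 with the third osmotic array highest. AT1G76600 rose from 328, 282 and 185 to 4214, 4395 and 4793, with close agreement among the osmotic arrays (4.03 ± 0.22, adjusted p = 4.42e-05). AT5G14730 rose from 51.9, 44.2 and 93.3 to 999, 810 and 2192. The files give no function for these genes.

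The 3 genes with a symbol among those 12 were LTI30, COR47 and ZCF37. LTI30 and COR47 encode dehydrins, hydrophilic proteins that protect membranes and enzymes in drying or cold cells. LTI30 went from 303, 254 and 275 to 8662, 5078 and 9596, about 25.7-fold (log2 change 4.68 ± 0.25, adjusted p = 4.05e-05). COR47 went from 160, 216 and 843 to 7471, 5497 and 12848 (4.63 ± 0.89, adjusted p = 0.0154). The third intact array stood well above the other 2, and the call was lost without the first or the second intact array (adjusted p = 0.061 and 0.062). ZCF37 went from 16.1, 56.4 and 2.88 to 720, 921 and 690.

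In some of the largest rises the third osmotic array stood far above the others, while in AT4G28140, AT3G59480 and AT1G72060 it was the lowest. AT1G53540 read 65.2, 91.4 and 67.1 in intact cells and 1525, 1649 and 13010 in mannitol. AT2G29500 read 197, 176 and 82.0, then 1204, 1578 and 10296. In both, the calls were lost without any 1 of the intact arrays (adjusted p of 0.065 to 0.070 and of 0.058 to 0.076). The unnamed probe sets with the largest rises shared the pattern. The probe set 252515_at went from 163, 129 and 90.3 to 4422, 4881 and 20542, and 250351_at from 185, 146 and 58.5 to 3785, 3631 and 18937, and both kept their calls without any 1 array. AT5G10695 rose from 288, 219 and 141 to 3454, 2982 and 11039.

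**Figure D2:**
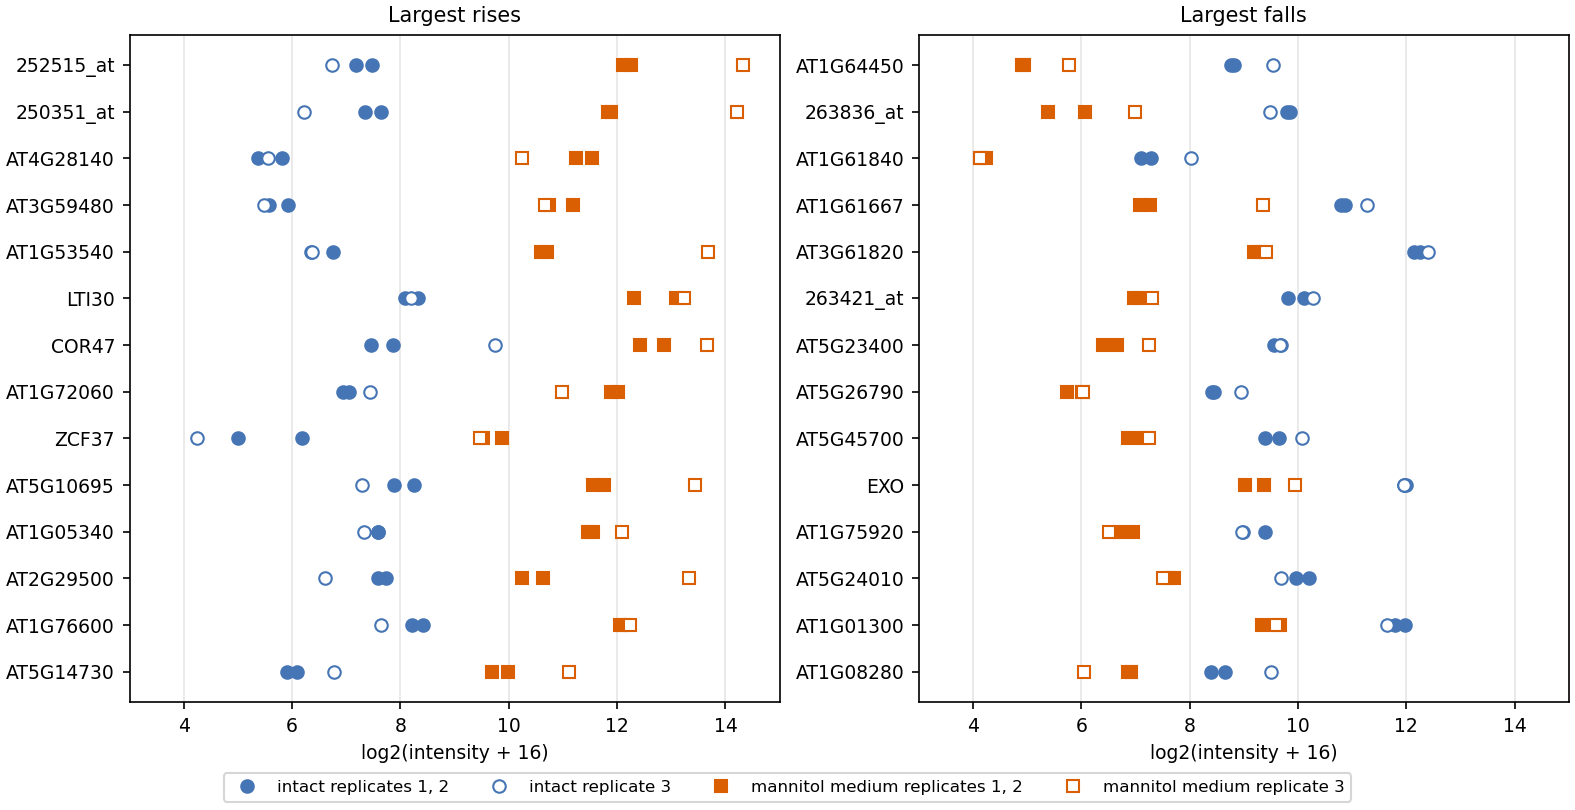
Values of log2(intensity + 16) on each array for the 12 largest rises and falls among probe sets of 1 gene and the 2 largest unnamed ones each way; circles are intact and squares mannitol cells, open where the array is replicate 3. The groups are apart in each row by the rule that chose the rows. In AT1G53540, AT2G29500 and both unnamed rises the open square lies far to the right of the filled ones.

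This deviation of the third osmotic array was wider than those genes. Among 10540 probe sets with a mean osmotic intensity of at least 200, the third array was over 3 times the mean of the other 2 for 157 and under 1/3 of it for 198. The second array was over 3 times the mean of its fellows for 0 probe sets and the first for 7. Of the 944 rises, 19 had the third array over 3 times the others and 52 under 1/3 of them. Heat shock genes show the high side. ATHSP22.0, a small heat shock protein of the endoplasmic reticulum, read 49.8, 38.2 and 77.9 in intact cells and 297, 355 and 6224 in mannitol. The chaperone partner Fes1A read 1176, 1235 and 976, then 2477, 2854 and 9839. Neither passed the test (adjusted p = 0.116 and 0.0902), nor did any of the 14 probe sets in the group of heat shock proteins and partners, where the background of calls is 8.07%. That group holds genes with a symbol only, so the called locus codes above were not sorted into it. With the replicate number as a block, ATHSP22.0, Fes1A and HSA32 passed (adjusted p = 0.0219, 0.0463 and 0.0349). The protoplast arrays had the same order for ATHSP22.0, at 116, 121 and 2076.

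PUB22, PUB23, WRKY6 and WRKY53 show the low side. PUB22 and PUB23 are ubiquitin ligases that dampen immune signalling. PUB22 read 574, 465 and 422 in intact cells and 3572, 3511 and 788 in mannitol (log2 change 2.12 ± 0.54, adjusted p = 0.0448). PUB23 read 229, 252 and 483, then 2872, 2995 and 1128 (2.75 ± 0.40, adjusted p = 0.00493). In both, the third osmotic array rose least, and the call on PUB22 was lost without each of 7 arrays, up to an adjusted p of 0.146 without the second osmotic array. The transcription factor gene WRKY6 went from 259, 262 and 295 to 1965, 1624 and 644, and WRKY22 from 72.5, 84.0 and 140 to 817, 710 and 415. WRKY22 and WRKY6 kept their calls without any 1 array. WRKY53 (507, 729 and 183 in mannitol, adjusted p = 0.0467) did not, with adjusted p up to 0.140 without the second osmotic array and 0.0503 with the replicate block.

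**Figure D3:**
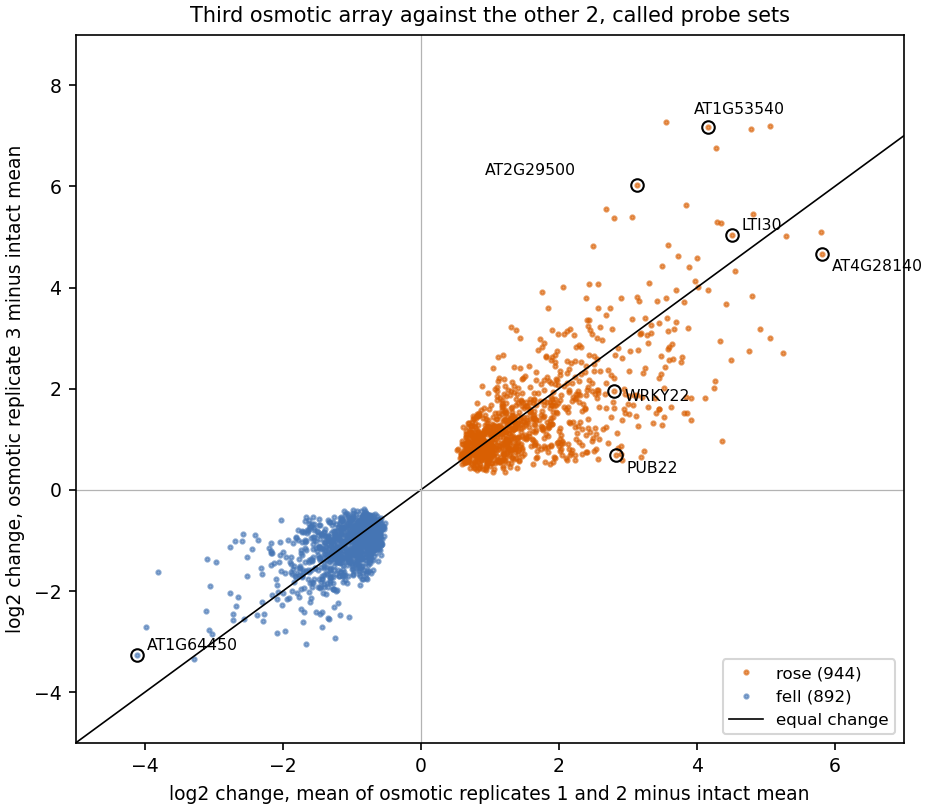
Log2 change of the third osmotic array (vertical) against that of the mean of the first and the second (horizontal), each relative to the intact mean, for the 944 rises (orange) and 892 falls (blue); the line marks equal change. AT1G53540 and AT2G29500 lie far above the line and PUB22 below it, while LTI30 lies close to it.

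Among genes of water stress beyond the dehydrins, some rose and others stayed low. A group of late embryogenesis, dehydrin and cold-regulated genes held 17 probe sets, of which 4 rose (LTI30, COR47, SRC2 and TIL) and 0 fell, with a median log2 change of 0.23. The share that rose over all probe sets was 4.15%. SRC2, a C2-domain protein first named in soybean as cold regulated, rose from 2973, 3429 and 2526 to 7394, 6795 and 11711. TIL, a lipocalin linked to membrane protection under heat and cold, read 5178, 5419 and 2089, then 9442, 8916 and 11118 (adjusted p = 0.0465, 0.0651 with the replicate block, and up to 0.110 without the first or the second osmotic array). The third intact array of TIL was low. COR15A, a chloroplast protein of the cold response, read 86.4, 65.9 and 19.5, then 297, 202 and 52.2, and did not pass (adjusted p = 0.216, and 0.0187 with the replicate block). COR15B stayed between 47.3 and 66.5 on all 6 arrays, and LEA4-5 did not exceed 19.2. Leaving out the first or the second intact array left 2 rises in this group.

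Of 6 probe sets in a list of osmotic and abscisic acid target genes, 2 rose and 0 fell, and 1 rose without the first or the second intact array. The 2 rises were LTI30 and COR47, already counted in the group above, so this list adds no further rise. Other genes linked to abscisic acid or to salt were chosen after their values were seen. XERICO, a RING protein that raises abscisic acid levels, read 327, 270 and 353, then 642, 761 and 2017. OSM34, an osmotin-like protein, read 51.4, 38.2 and 10.3, then 308, 254 and 92.9. DTX50 (AT5G52050), an efflux carrier for abscisic acid, read 74.2, 87.9 and 4.36, then 505, 596 and 165. The osmotic arrays lay above the intact arrays in all 3 genes, as in every called rise, with log2 changes of 1.62, 2.21 and 2.75. Each call was lost, however, without at least 4 of the 9 arrays (adjusted p up to 0.130, 0.074 and 0.126). SIS, a serine-rich protein induced by salt, rose from 15.7, 7.27 and 38.8 to 408, 451 and 326 (3.57 ± 0.29, adjusted p = 0.000414). The protein kinase gene ATSIK rose from 141, 163 and 181 to 663, 668 and 599 (1.90 ± 0.17). STZ, a zinc finger repressor of the water-stress response, read 311, 296 and 121, then 525, 622 and 564 (adjusted p = 0.0383). Its call was lost without each of 6 arrays, up to 0.123 without the second osmotic array.

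Tau class glutathione transferases attach glutathione to reactive molecules, and 4 of 11 probe sets rose and 0 fell (median log2 change 0.60). Of all probe sets, 4.15% rose. Below 0 lay 2 of the 11, the lowest at -1.30, and 1 fell in the fit without the first osmotic array. GSTU25 went from 16.7, 34.8 and 23.9 to 278, 167 and 239, and GSTU22 from 6.17, 25.5 and 20.9 to 165, 94.1 and 145. These 2 held without any 1 array. The calls on GSTU28 and GSTU21 did not (adjusted p up to 0.101 and 0.142), and GSTU21 missed the threshold with the replicate block (adjusted p = 0.0612). UDP-glycosyltransferases, which attach sugars to hormones and small molecules, had 6 rises and 0 falls among 49 probe sets (median 0.19), and 3 rises without the second osmotic array. UGT73B1 rose from 6.48, 5.92 and 16.3 to 94.1, 68.6 and 90.8. Levels of both families in intact cells were low, so these folds start near the bottom of the scale.

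AER, an alkenal reductase that detoxifies reactive carbonyls, rose from 2539, 2349 and 1416 to 7104, 5777 and 5508 (1.57 ± 0.24, adjusted p = 0.00569). NDB2, a mitochondrial NAD(P)H dehydrogenase that bypasses complex I, rose from 169, 162 and 266 to 1051, 677 and 758. The other 4 of 5 type II NAD(P)H dehydrogenase probe sets did not pass, and 2 of the 5 were below 0. FMO, a flavin-dependent monooxygenase, rose from 158, 177 and 211 to 505, 501 and 475. AER, NDB2 and FMO kept their calls without any 1 array. None of 24 cytochrome P450 probe sets or 20 sugar transporter probe sets passed, with median log2 changes of 0.10 and 0.25, which does not show that they stayed the same.

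MT1C, a metallothionein that binds metal ions, went from 634, 582 and 304 to 7223, 5088 and 2929 (3.26 ± 0.44, adjusted p = 0.00313). OASA2, of the family of enzymes that make cysteine, rose from 549, 362 and 559 to 1563, 1514 and 1217. SUFE2 and HCF101, which serve iron-sulphur cluster assembly in plastids, had log2 changes of 1.29 and 1.37, but both calls were lost without at least 6 arrays, up to adjusted p of 0.132 without the first intact array and of 0.132 without the first osmotic array. The metal transporter gene NRAMP5 read 190, 197 and 229, then 44.3, 76.6 and 136 (adjusted p = 0.0398, up to 0.117 without the third intact or the second osmotic array).

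ATG8 proteins coat the membrane that engulfs cell contents for breakdown. This group, too, was written after values had been seen. All 9 ATG8 probe sets had log2 changes above 0, where 50.8% of all probe sets did. Of the 9, 3 rose, against 4.15% of all probe sets. ATG8H went from 58.8, 51.1 and 49.7 to 410, 316 and 697, and ATG8E from 128, 70.4 and 113 to 605, 797 and 579. ATG8F, already bright, went from 1444, 1502 and 1368 to 3682, 3998 and 2792 (1.25 ± 0.18, adjusted p = 0.0049). These 3 calls held without any 1 array. ATG101 (AT5G66930), part of the complex that starts autophagy, read 281, 175 and 191, then 374, 483 and 403 (adjusted p = 0.0347, up to 0.123 without the second osmotic array).

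Of 4 vacuolar processing enzyme probe sets, 1 rose, and 0 did without the second osmotic array. It was GAMMA-VPE, a vacuolar cysteine protease, which read 898, 901 and 666 in intact cells and 1958, 1978 and 1414 in mannitol (adjusted p = 0.0118, and 0.055 without the second osmotic array). ALPHA-VPE read 294, 293 and 89.4, then 873, 925 and 269, and did not pass (adjusted p = 0.12), though it did with the replicate block (adjusted p = 0.0146). In ALPHA-VPE the third array was the lowest of each group. In a group for branched-chain amino acid breakdown and electron transfer flavoprotein, 2 of 9 probe sets rose and 3 were below 0, and 0 rose without the first or the second intact array or the second osmotic array. The shares over all probe sets were 4.15% that rose and 49.2% below 0. IVD and ETFBETA, which oxidise leucine products and pass their electrons to the respiratory chain, had log2 changes of 0.77 ± 0.16 and 0.72 ± 0.14 (adjusted p = 0.0229 and 0.0185). Their highest adjusted p was 0.085 and 0.070, both without the first intact array. GAT1_2.1, a glutamine amidotransferase, rose from 7.06, 5.37 and 4.12 to 60.1, 131 and 140 on 1 probe set, while a second probe set of the gene had a log2 change of 0.20 (adjusted p = 0.851). KINbeta3 (AT2G28060), a subunit of the energy-sensing SnRK1 kinase, read 423, 402 and 492, then 252, 240 and 313 (adjusted p = 0.0377, up to 0.134 without the second osmotic array).

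Genes of the endoplasmic reticulum moved both ways. BZIP60, a transcription factor that answers misfolded protein there, rose from 637, 519 and 502 to 2198, 2049 and 2144 (1.92 ± 0.16, adjusted p = 0.000471). DER2.1, a derlin that helps export misfolded protein, rose from 539, 713 and 400 to 1262, 1774 and 1456. ATERDJ2A, a chaperone partner at the protein channel, went from 1046, 1102 and 1297 to 691, 686 and 631 (log2 change -0.76 ± 0.16, adjusted p = 0.0235). The 2 rises held without any 1 array, and ATERDJ2A was lost without any 1 of the 6 intact and osmotic arrays (adjusted p up to 0.079). The other 12 of 15 probe sets in this group did not pass, where 8.07% of all probe sets passed.

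IAA30, an Aux/IAA repressor of auxin response, rose from 212, 176 and 349 to 3142, 2500 and 1573 (3.21 ± 0.31, adjusted p = 0.000766). IAGLU, which joins auxin to glucose, rose from 71.5, 65.2 and 37.3 to 270, 338 and 211. IAA18 had a log2 change of 1.04 (adjusted p = 0.0192, lost without 4 arrays, up to 0.078), so 3 of 17 auxin probe sets rose and 0 fell. Of 22 basic leucine zipper probe sets, 3 rose and 3 fell, with a median log2 change of -0.01. For both families, the shares over all probe sets were 4.15% that rose and 3.92% that fell. BZIP53, a factor of low-energy responses, went from 1152, 1232 and 1446 to 696, 639 and 644 (adjusted p = 0.0261). BZIP24 read 55.6, 46.8 and 37.4, then 4.89, 18.0 and 15.2. The calls on BZIP53 and BZIP24 were lost without at least 2 arrays (up to 0.092 and 0.060), and bZIP52 missed the threshold with the replicate block (adjusted p = 0.046, 0.0538 with it, and up to 0.133 without the first intact array).

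Further genes that rose and kept their calls without any 1 array were PTI1-4, a kinase of the PTI1 family (349, 410 and 426, then 1079, 1026 and 1410), TET8, a tetraspanin of secreted vesicles (454, 409 and 368, then 1474, 1199 and 1092), and CCR2, a cinnamoyl-CoA reductase of the lignin route. CCR2 went from 196, 251 and 88.0 to 1444, 1430 and 571. Of 15 tetraspanin probe sets, TET8 rose, TET7 and TET10 fell and 12 were not called, where 8.07% of all probe sets were called. TET7 read 762, 933 and 1062, then 392, 361 and 488, and its call was lost without the second osmotic array (adjusted p = 0.052). TET10 had a log2 change of -0.74 (adjusted p = 0.0363), lost without each of 8 arrays, up to 0.112 without the first osmotic array. XTH18, an enzyme that cuts and rejoins xyloglucan, rose from 263, 215 and 100.4 to 988, 1116 and 871. SIZ1, a ligase for the small modifier SUMO, is read by 2 probe sets, and both passed (log2 changes of 0.62 and 0.66, adjusted p = 0.0397 and 0.0463), though both calls were lost without at least 7 arrays, up to 0.123 and 0.153.

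Falls were led by genes that the array's annotation gives by locus code alone. AT1G64450 went from 437, 418 and 733 to 14.04, 14.96 and 38.8, the largest fall of a probe set of 1 gene (log2 change -3.83 ± 0.28, adjusted p = 0.000254). AT1G61840 went from 141, 121 and 244 to 3.03, 1.50 and 1.54 (-3.30 ± 0.23). AT3G61820 fell from a high level, from 4521, 4844 and 5369 to 609, 568 and 664 (-2.97 ± 0.16, adjusted p = 4.05e-05). AT1G01300, bright as well, fell from 3533, 4035 and 3180 to 634, 802 and 759. In all 4 the groups were apart, as in every called probe set. The other 7 falls with only a locus code ran from -3.08 for AT1G61667 to -2.24 for AT1G08280. The unnamed probe sets 263836_at (907, 871 and 702, then 25.8, 51.1 and 111) and 263421_at (890, 1097 and 1222, then 116, 109 and 142) fell by 3.56 and 2.97 on the log2 scale. These 14 falls kept their calls without any 1 array.

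EXO, a secreted protein that promotes growth downstream of brassinosteroids, fell from 3969, 4044 and 3957 to 506, 648 and 965 (-2.52 ± 0.25, adjusted p = 0.00083). SKU5, a wall glycoprotein of directed growth, fell from 6768, 7082 and 7340 to 1706, 1794 and 3021. COB, which orients cellulose deposition, went from 714, 839 and 761 to 367, 413 and 368 (-0.98 ± 0.19). TBL25, of a family that acetylates wall sugars, fell from 793, 751 and 774 to 257, 206 and 340, while 24 other probe sets of that family did not pass. COB lost its call without the second intact or the first osmotic array (adjusted p = 0.066 and 0.056), and the other 3 held without any 1 array.

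Enzymes that build wall glycans fell in 5 of 18 probe sets and rose in 0 (median log2 change -0.22), where 3.92% of all probe sets fell. GALT29A (AT1G08280) and GlcAT14A (AT5G39990) both add sugars to arabinogalactan proteins. GALT29A went from 385, 320 and 707 to 99.9, 104 and 50.4 (-2.24 ± 0.33, adjusted p = 0.00498). GlcAT14A went from 635, 818 and 934 to 321, 292 and 256 (-1.40 ± 0.28, adjusted p = 0.0185). CSLA03 of the glucomannan synthases, GAUT15 of the galacturonosyltransferases of pectin and ATCSLC08 of the xyloglucan backbone synthases had log2 changes of -1.40, -1.14 and -1.13. Each of these lay wholly below its intact arrays, as did every called fall and 16.7% of all probe sets. Without the second osmotic array only 1 of the 5 calls was left, and ATCSLC08 missed the threshold with the replicate block (adjusted p = 0.0333, and 0.051 with it). The expansin EXPB3, a wall-loosening protein, was the sole called member of 19 expansin probe sets (847, 956 and 714, then 448, 498 and 252), and its call was lost without each of 8 arrays, up to 0.125 without the second intact array.

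Receptors and peptides that steer growth lay mostly below 0, in a group written after values had been seen, so its counts describe its members only. Of 27 probe sets, 6 fell, where 3.92% of all probe sets did, and 0 rose. In 22 the log2 change was below 0, against 49.2% of all probe sets (median of the group -0.48). PSY1R, the receptor named for a growth-promoting sulphated peptide, fell from 138, 166 and 180 to 53.0, 43.3 and 30.0. MOL1, a receptor-like kinase that restrains cambium growth, fell from 230, 225 and 369 to 59.3, 61.9 and 89.2. QKY, a membrane protein of tissue shape, fell from 1617, 2100 and 1828 to 832, 658 and 576. THE1, a receptor kinase that watches wall integrity, read 462, 472 and 436, then 194, 189 and 226. PSY1R, MOL1 and QKY kept their calls without any 1 array. THE1 did not (adjusted p up to 0.057 without the second osmotic array), and 3 falls of the 6 were left without the first intact or the second osmotic array.

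Of 25 probe sets for actin, myosins and actin-binding proteins, 4 fell and 0 rose, where 3.92% of all probe sets fell. The median log2 change was -0.08. NET1A and NET3C, which tie actin to membranes, fell from 623, 813 and 797 to 211, 203 and 157, and from 421, 273 and 302 to 106, 122 and 101. The actin gene ACT11 went from 1129, 1077 and 1135 to 409, 455 and 713, and the signalling factor SPK1 from 370, 431 and 416 to 213, 198 and 186. The last 2 calls were lost without at least 3 arrays (adjusted p up to 0.112 and 0.067). TUB7, a beta-tubulin, went from 4145, 4910 and 4486 to 2117, 2482 and 2538 (-0.92 ± 0.17, adjusted p = 0.0122, 0.056 without the second intact array). GTR2, a glucosinolate transporter, and TCP15, a factor of cell growth and division, fell by 1.21 and 1.15 on the log2 scale (adjusted p = 0.00381 and 0.00533), both without loss when any 1 array was left out.

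Of 34 probe sets for DNA replication, repair and topology, 10 fell and 0 rose, 31 had log2 changes below 0, and the median was -0.59. TOPII, the topoisomerase that untangles chromosomes, fell from 2640, 2073 and 2108 to 891, 868 and 583 (-1.54 ± 0.20, adjusted p = 0.00301). ICU2, the catalytic subunit of polymerase alpha, fell from 531, 607 and 669 to 291, 267 and 290. POLD3, a subunit of polymerase delta, fell from 592, 584 and 579 to 286, 291 and 306. The helicase RECQ4A fell from 191, 189 and 166 to 86.6, 75.8 and 71.0, and TERT, the telomerase reverse transcriptase, from 116, 93.3 and 101 to 37.5, 35.9 and 27.5. These 5 held without any 1 array. PRL, the helicase subunit MCM7, FANCM, TOP3A, BIN4 and RECQSIM had log2 changes of -0.86, -1.08, -0.79, -0.74 and -0.74, and 5 of the 10 calls were left without the second intact or the second osmotic array. UNG, a repair glycosylase, read 366, 390 and 335, then 158, 208 and 145, and did not pass (adjusted p = 0.0615).

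Mitosis and cytokinesis genes had a median of -0.65 over 22 probe sets, the lowest among the 24 groups of the plot. Of these probe sets, 7 fell, 0 rose and 19 were below 0, against 3.92%, 4.15% and 49.2% of all probe sets. AUR2, a mitotic kinase, fell from 1186, 1050 and 1298 to 451, 615 and 557 (-1.11 ± 0.18, adjusted p = 0.00829), and it kept its call without any 1 array. Its relative AUR1 read 2838, 2762 and 2430, then 1422, 1924 and 1680 (adjusted p = 0.0408). KINESIN-12B, a motor of the dividing plane, read 299.8, 336 and 340, then 159, 190 and 181. WYR, the inner centromere protein, read 208, 256 and 179, then 113, 101 and 90.4. Calls other than that on AUR2 were lost without at least 2 arrays (adjusted p up to 0.133), and 2 of the 7 were left without the first or the second array of either group. As said above, these levels do not separate fewer dividing cells from less RNA in each.

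**Figure D4:**
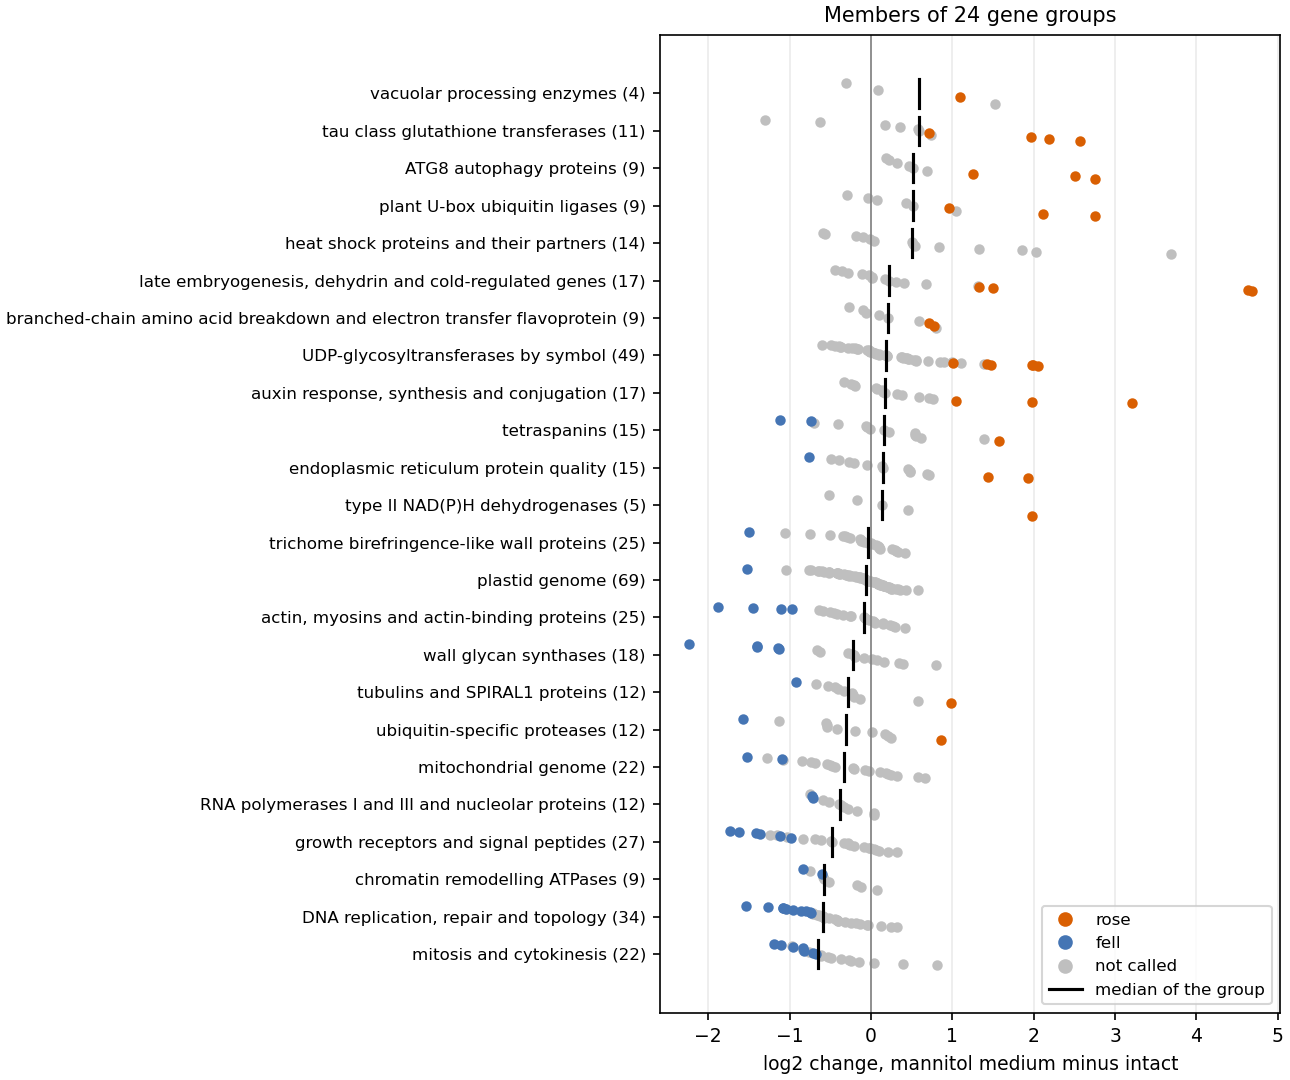
Log2 change of each probe set (points) in 24 gene groups written after values had been seen, ordered by median (black bar), with the number of probe sets in brackets; orange rose, blue fell, grey was not called. The 6 groups with the lowest medians hold falls and no rises. The heat shock group, high by its median, holds no call, but it covers genes with a symbol only and leaves out those known by locus code.

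Of 12 probe sets for RNA polymerases I and III and nucleolar proteins, 2 fell (NRPA1 and RBL) and 10 were below 0 (median -0.38), but 0 fell without each of 5 of the arrays. The shares over all probe sets were 3.92% that fell and 49.2% below 0. NRPA1, the largest subunit of RNA polymerase I, read 881, 983 and 970, then 646, 554 and 520 (adjusted p = 0.0257). Of 9 probe sets for chromatin remodelling ATPases, 2 fell, 0 rose and 8 were below 0 (median -0.58). They were CHR17 and CHR40, with log2 changes of -0.83 and -0.60, and CHR40 missed the threshold with the replicate block (adjusted p = 0.0452, and 0.056 with it). Both calls were lost without the second or the third intact array or the second osmotic array.

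Of 69 plastid probe sets, 0 rose and 1 fell (against 4.15% and 3.92% of all probe sets), with a median log2 change of -0.06. That one was petN, a small subunit of the cytochrome b6f complex, which went from 45.2, 56.2 and 60.1 to 9.88, 9.54 and 5.36 (-1.52 ± 0.16, adjusted p = 0.00121). Of 22 mitochondrial probe sets, ccb206 and nad2 fell, and both calls were lost without at least 4 arrays (adjusted p up to 0.081 and 0.119).

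In the order of genes in the TAIR10.1 assembly, 43 of 355 rising genes with a measured neighbour (12.1%) were next to another rising gene, where 5.22% of all genes with a measured neighbour were. For falling genes it was 12 of 370 (3.24%), where 5.28% of all were. There were 20 pairs and 1 triple of rising genes and 6 pairs of falling ones. The triple was AT5G16960, AER and AT5G16980. AT5G16960 rose from 38.05, 40.2 and 33.2 to 261, 230 and 219, and AT5G16980 from 701, 666 and 791 to 2809, 2234 and 2857. Pairs of related genes, such as GSTU22 with GSTU21, UGT73B5 with UGT73B4 and XTH18 with XTH19, are uncertain as separate observations, since near-identical copies may share hybridisation. The calls on GSTU21, UGT73B5 and XTH19 were lost without at least 4 arrays (adjusted p up to 0.142, 0.138 and 0.110). In the other pairs and the triple, at least 1 member has a locus code only. Their names therefore do not tell whether the genes are related. Examples are BZIP60 with AT1G43000 (log2 changes of 1.92 and 3.02) and CML30 with AT2G15695 (1.24 and 1.65). Among falls, TOP3A lay beside AT5G63930 and BZIP53 beside AT3G62430, with the calls on TOP3A and BZIP53 lost without at least 5 arrays (adjusted p up to 0.096 and 0.092). No test was made of these shares.

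Genes read by more than 1 probe set of their own gave a further check on single probe sets. Of 145 such genes, 15 had a called probe set, and in 4 of these at least 2 probe sets were called the same way. None of the 15 was called both ways, and 13 had all probe sets on the same side of 0. AT5G54130 rose on both of its probe sets (log2 changes of 1.88 and 1.72), from 286, 228 and 175 to 1168, 1114 and 513 on the first. AT1G23440 and AT5G52580 also rose on both, by 0.98 and 1.33 and by 1.18 and 0.81. SETH5 was higher on 1 probe set (0.97, adjusted p = 0.0356, up to 0.121 without the second intact array) and at -0.27 on the other (adjusted p = 0.445).

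Setting the protoplasts beside these values shows where the walled cells differed from them. Over all probe sets, 42.1% differed between protoplasts and osmotic cells (limma, adjusted p under 0.05). The genes here were chosen after their values were seen, and both comparisons share the osmotic arrays. petN was at 64.1 to 72.6 in protoplasts, above its osmotic arrays (1.79 ± 0.16, adjusted p = 5.82e-05) and with no overlap with its intact ones, though its mannitol level lay at the bottom of the scale, where background was not told apart. BZIP53 was lower in mannitol yet reached 3239 to 5042 in protoplasts (2.68 ± 0.20, adjusted p = 3.03e-05). EXO was less low in protoplasts, at 1534 to 2386 (1.45 ± 0.25, adjusted p = 0.00147).

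Other genes went further in protoplasts. GSTU25 reached 8712 to 10289 there against 167 to 278 in mannitol, and WRKY22 reached 5852 to 7460 against 415 to 817. LTI30 reached 21437 to 27688 (1.74 ± 0.25, adjusted p = 0.000504). SHL1, a plant homeodomain chromatin reader, and SKP2A, an F-box protein of the cell cycle, rose in mannitol to 881 to 1093 and to 565 to 643, and were at 259.7 to 310.3 and 140.5 to 314 in protoplasts (adjusted p = 0.000105 and 0.00184 for protoplasts against osmotic cells). The rise of SKP2A over intact cells was lost without each of 4 arrays, up to an adjusted p of 0.079 without the first intact array. COR47 was at 690.2, 762 and 6900.0 in protoplasts, where the third array again stood apart, and the difference from the osmotic cells did not pass (adjusted p = 0.0577). DEWAX (AT5G61590), a repressor of wax synthesis, was at 67.3 to 82.2 in protoplasts against 183, 232 and 818 in mannitol (adjusted p = 0.00768). Its rise over intact cells (70.7, 64.6 and 86.9, adjusted p = 0.0323) was lost without each of 6 arrays, up to 0.103 without the second intact array.

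**Figure D5:**
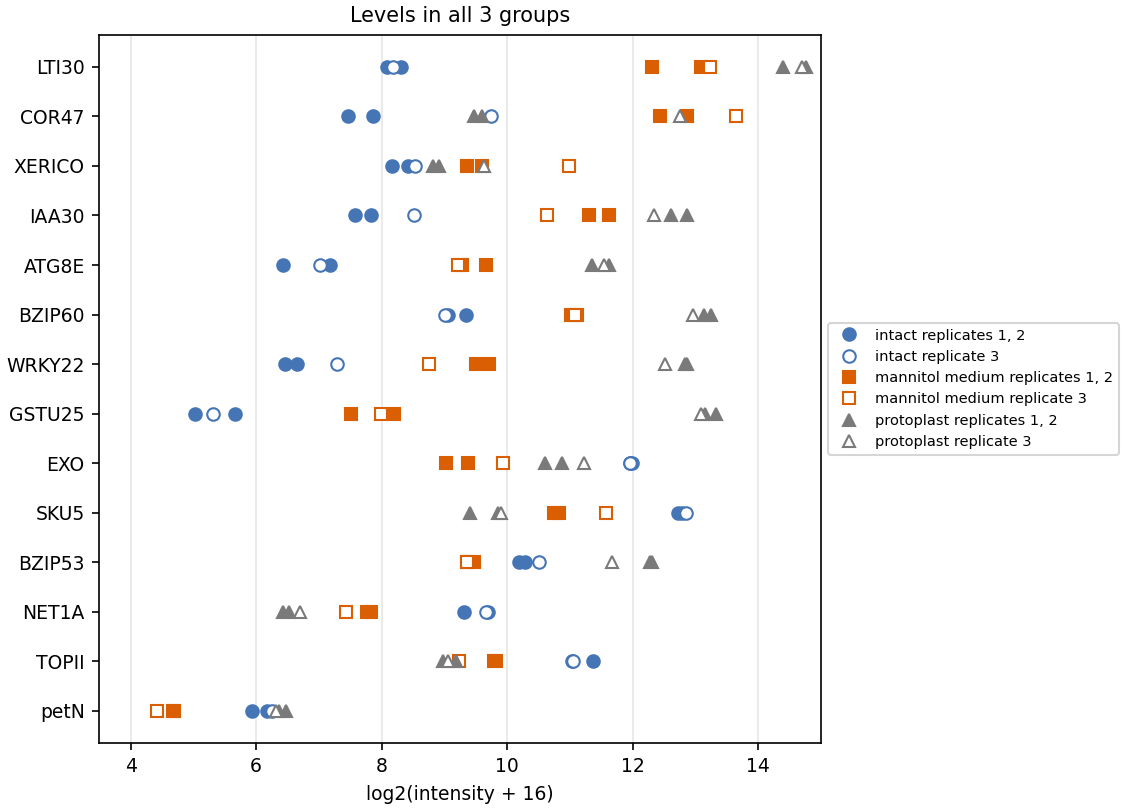
Values of log2(intensity + 16) on every array for 14 named genes; circles are intact, squares mannitol and triangles protoplast cells, open where the array is replicate 3. In petN the protoplasts lie near the intact arrays and apart from the mannitol arrays, while in GSTU25, WRKY22 and NET1A they lie beyond the mannitol arrays.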

How the data were processed

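RNA from 9 samples, 3 groups of 3 biological replicates, was labelled with biotin from 750 ng of total RNA and hybridised to Affymetrix ATH1 arrays, per the labels' protocols. The authors deposited a linear intensity for each probe set on each array. The labels do not say how the probes were summarised. Without detection calls, dim probe sets were not told from background. The number of arrays limits the precision.

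From the deposited intensities, log2(intensity + 16) was computed and fitted over all 9 arrays with limma 3.58.1 (R 4.3.3, statmod 1.5.0) for 22746 probe sets, with Benjamini-Hochberg adjustment within each comparison and calls at an adjusted p under 0.05. The fit was also run on simulated arrays with noise independent between arrays. These lack the shared deviation of the third arrays described below, so no result here rests on them. Probe sets were named from the array's annotation, and may have changed since: 13513 had 1 gene, 503 several and 8730 none. Gene order and older names came from a TAIR10.1 gene table. Python 3.11.15, pandas 2.3.3, scipy 1.17.1 and matplotlib 3.10.9 were used.

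Members and lists were chosen with earlier results of these data known, and 24 gene groups, those counted in the text as groups or families unless said otherwise, were written after values had been seen, so their counts are descriptions. The basic leucine zipper, expansin, cytochrome P450 and sugar transporter counts are not of these groups. They come from keyword lists matched to gene names. The rule for named genes took, among called probe sets of 1 gene without overlap, 12 rises and 12 falls of largest size, 2 unnamed probe sets each way, and up to 3 each way per list. Others were named after their values were seen. Of 309 genes in 18 earlier lists, 46 had a probe set of their own.

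Arrays of the same replicate number deviated together in each of 9 pairs (r = 0.10 to 0.47 across probe sets). The labels do not say that a number marks a shared culture or day. The main fit had no replicate block, so its counts and p-values take no account of such pairing, and a fit with the block was an alternative. The third arrays deviate from other numbers (r = -0.43 to -0.15), while numbers 1 and 2 of different groups also go together (0.14 to 0.32). These values therefore set the third arrays apart but do not pair number 1 with 1 and 2 with 2. Alternatives were this block, a fit of only the groups compared, other variance priors and array weights, 3 other scalings, other pseudocounts, filters and thresholds, and leaving out each array.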

Additional observations from a re-analysis of the deposited data

How the results depend on the processing

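The counts of 944 rises and 892 falls stayed within 1.5 times with the replicate block (1177 and 1120), in a fit of only the groups compared (904 and 894), with another variance prior (1093 and 1121), under quantile normalization (984 and 1054), median centring (982 and 963) and centring on hybridisation controls (669 and 661), without the dimmest 40% of probe sets (1229 and 1308) and without probe sets shared by related transcripts (921 and 885). They moved further with array weights (2428 and 2276), with replicates 1 and 2 only (1720 rises), with a pseudocount of 1 (484 falls) or 64 (1439 falls), at an adjusted p under 0.01 (342 and 218) and over probe sets of 1 gene only (481 and 497, and 5241 that differ between protoplasts and osmotic cells, against 9565), the last since fewer probe sets were tested. For the other settings the cause was not tested. Leaving out 1 array gave 429 to 1283 rises and 328 to 1295 falls, lowest without the second osmotic array for rises and without the second intact array for falls, and 7973 to 10167 probe sets that differ between protoplasts and osmotic cells. Without the third osmotic array there were 1062 rises, of which 751 were among the 944.

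Of 185 called probe sets named by rule or in the text, 110 lost their call without at least 1 array and 75 kept it. Of the 185, 65 lost their call with a pseudocount of 1, 45 with centring on hybridisation controls, 36 in a fit of only the groups compared, 26 with replicates 1 and 2 only and 13 with the replicate block, and at most 9 did in each of the other settings that kept all arrays and this threshold. The second probe set of GAT1_2.1, not called, changed sign, at -0.12 without the second intact array and -0.03 without the second osmotic array, within a range of -0.12 to 0.55 over single arrays left out. The median log2 change over all probe sets lay between -0.04 and 0.03 in these settings.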
